A study of Mus musculus with 8 samples.

Results

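The expression of 10 genes of bone morphogenetic protein (BMP) signalling was compared between R1 mouse embryonic stem cells kept in leukaemia inhibitory factor (LIF) and in sodium butyrate. The genes were the ligands Bmp4 and Bmp7, the transcriptional regulators Id1, Id2, Id3, Id4, Msx1 and Msx2, which are targets of the pathway, and the inhibitors Bambi and Smad6. Every non-control probe that carried one of these names on the array was taken, whatever its value, which gave 16 probes (61 spots per array) of 41174 probes and 10 of 27962 gene names. The reference accession of all 16 probes led to the same gene symbol. Of these probes, 15 passed the filter on dim signals, as did 25661 probes in all, and each of the 10 genes kept at least 1 tested probe. To pass, a probe had to be well above background in at least 1 of the channels, on no fewer than 3 arrays. The 15 probes are therefore not all probes of these genes, and 1 of them, for Msx1, passed through the butyrate channel alone.

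All 8 samples were of the line R1, an established line of pluripotent cells derived from the early mouse embryo, grown on gelatin in a medium with serum replacer. In 4 samples the cells were kept with LIF, the cytokine that sustains self-renewal of mouse embryonic stem cells, and without feeder cells. In the other 4 samples they were kept without LIF and with butyrate at 0.2 mM, an inhibitor of histone deacetylases, over 15 passages. The labels used here give no passage number for the LIF samples, so any difference in passages cannot be told apart from treatment. No sample without both LIF and butyrate was analysed here, so the loss of LIF and the presence of butyrate cannot be told apart. Each of 4 Agilent whole-genome arrays, all on 1 slide, carried the butyrate and LIF samples of 1 replicate number, butyrate in Cy5 and LIF in Cy3. Since no array had the dyes the other way round, dye and treatment cannot be told apart either. The replicates are called independent in the labels, which name no separate lines, so a p-value here covers only the variation among these cultures or preparations, some of which may be technical.

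BMP ligands are secreted proteins of the transforming growth factor beta family. They bind paired type I and type II receptors, which phosphorylate Smad1, Smad5 and Smad9. These enter the nucleus with Smad4 and act on target genes, among which the Id genes respond most directly. Id proteins have a helix-loop-helix but no DNA-binding region, and hold the E proteins in inactive pairs. Msx1 and Msx2 are homeodomain repressors of limb, tooth and skull development. In mouse embryonic stem cells grown without serum, BMP4 is known to act together with LIF to sustain self-renewal through the Id genes, and Bmp4 is also known to promote mesoderm and, in some settings, trophoblast fates.

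Promoter sequences of 7 of the 10 genes were taken from the RefSeq promoter table (build GRCm38.p6), and none was used for Bmp7, Id1 and Bambi. Those of Id2, Id3, Id4, Msx1 and Msx2 are printed because these target genes moved in different directions and by different sizes, as described further on. Each line gives the 250 bases before the gene's start on its own strand, with every match to GGCGCC, a GC-rich element known to be bound by Smad1 and Smad5, and to GTCT or its complement AGAC, the Smad box known to be bound by Smad4, in capitals. GGCGCC reads the same on both strands, and the motifs cannot overlap. The windows were chr12:25096093-25096342 on the minus strand for Id2, chr4:136143572-136143821 on the plus strand for Id3, chr13:48260866-48261115 on the plus strand for Id4, chr5:37824586-37824835 on the minus strand for Msx1 and chr13:53472781-53473030 on the minus strand for Msx2.
Id2: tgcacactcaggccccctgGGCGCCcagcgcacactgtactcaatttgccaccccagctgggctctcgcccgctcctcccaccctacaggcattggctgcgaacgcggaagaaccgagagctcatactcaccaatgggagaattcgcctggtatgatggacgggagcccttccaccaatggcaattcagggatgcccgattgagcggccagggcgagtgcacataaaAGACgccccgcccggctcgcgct
Id3: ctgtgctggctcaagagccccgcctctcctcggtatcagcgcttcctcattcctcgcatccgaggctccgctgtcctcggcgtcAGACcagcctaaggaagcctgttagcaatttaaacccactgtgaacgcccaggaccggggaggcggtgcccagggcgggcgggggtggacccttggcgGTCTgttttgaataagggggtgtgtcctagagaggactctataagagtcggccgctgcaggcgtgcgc
Id4: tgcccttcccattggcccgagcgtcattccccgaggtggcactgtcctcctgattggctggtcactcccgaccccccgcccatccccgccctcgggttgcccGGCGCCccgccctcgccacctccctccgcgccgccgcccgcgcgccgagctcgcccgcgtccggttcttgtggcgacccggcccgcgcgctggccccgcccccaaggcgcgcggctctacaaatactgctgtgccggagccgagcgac
Msx1: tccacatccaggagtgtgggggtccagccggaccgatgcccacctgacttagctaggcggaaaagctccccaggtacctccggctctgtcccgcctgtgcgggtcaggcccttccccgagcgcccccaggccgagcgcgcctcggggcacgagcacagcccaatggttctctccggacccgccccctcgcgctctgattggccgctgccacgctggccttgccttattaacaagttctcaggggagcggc
Msx2: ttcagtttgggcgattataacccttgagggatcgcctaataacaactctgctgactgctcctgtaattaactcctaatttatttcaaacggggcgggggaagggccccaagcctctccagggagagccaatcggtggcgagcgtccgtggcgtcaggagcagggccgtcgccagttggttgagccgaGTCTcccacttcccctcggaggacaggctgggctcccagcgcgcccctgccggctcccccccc

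In these windows Id2 held 1 GGCGCC and 1 GTCT, Id3 held 2 GTCT, Id4 held 1 GGCGCC, Msx2 held 1 GTCT, and Msx1 held no match. Bmp4 and Smad6 each held 1 GTCT. Of all 32851 promoters in the table, 9.59% held GGCGCC, 82.9% held GTCT and 7.06% held both in a window of the same length. GGCGCC was thus present upstream both of Id2, which rose in butyrate, and of Id4, which fell under loess, and absent from the window of Msx2, the gene with the largest change. The GC content of the 7 windows was 61.6% to 75.6%, above the median of 52.4% over all promoters. A match is a description of the letters only, and its part in the changes was not tested. Bases before the windows were not searched.

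Across the array most transcripts differed between the groups, and this sets the background for every count. Of the 25661 tested probes, 39.7% were higher and 32.5% lower in butyrate at a limma adjusted p under 0.05, 4.10% were at least 2-fold higher and 1.61% at least 2-fold lower, and the median log2 ratio was 0.03. Of the calls, 55.0% were higher. With each array only centred on its median, without loess, 92.0% were higher and the median of all probes was 0.37, and 44.9% were higher in the values the authors deposited. The channels had 57.9% to 61.2% of non-control spots well above background in LIF and 62.7% to 63.9% in butyrate. The stem cell markers of the labelled cell type were present in both groups: 9 of 10 had a probe, all 9 were above background in every group, and 7 were lower and 1 higher in butyrate, with a median log2 ratio of −1.10.

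Among the BMP genes, 10 of the 15 tested probes were higher and 5 lower in butyrate. Id1, Id2, Id3, Msx1 and Msx2 had probes at least 2-fold higher, 7 probes in all, and 0 probes were at least 2-fold lower, the largest decrease by limma being 1.55-fold. The 5 lower probes were those of Bmp4, Bmp7 and Id4. With 39.7% and 32.5% of all tested probes called, the number of calls is to be read against that background, and the sizes are given gene by gene. For each of the 15 probes the 4 butyrate levels lay wholly on one side of the 4 LIF levels, as they did for 65.3% of all tested probes. The 15 include the Msx1 probe that passed the filter through butyrate alone. In bulk samples such as these, fewer cells of a type and less RNA per cell cannot be told apart.

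**Figure D1:**
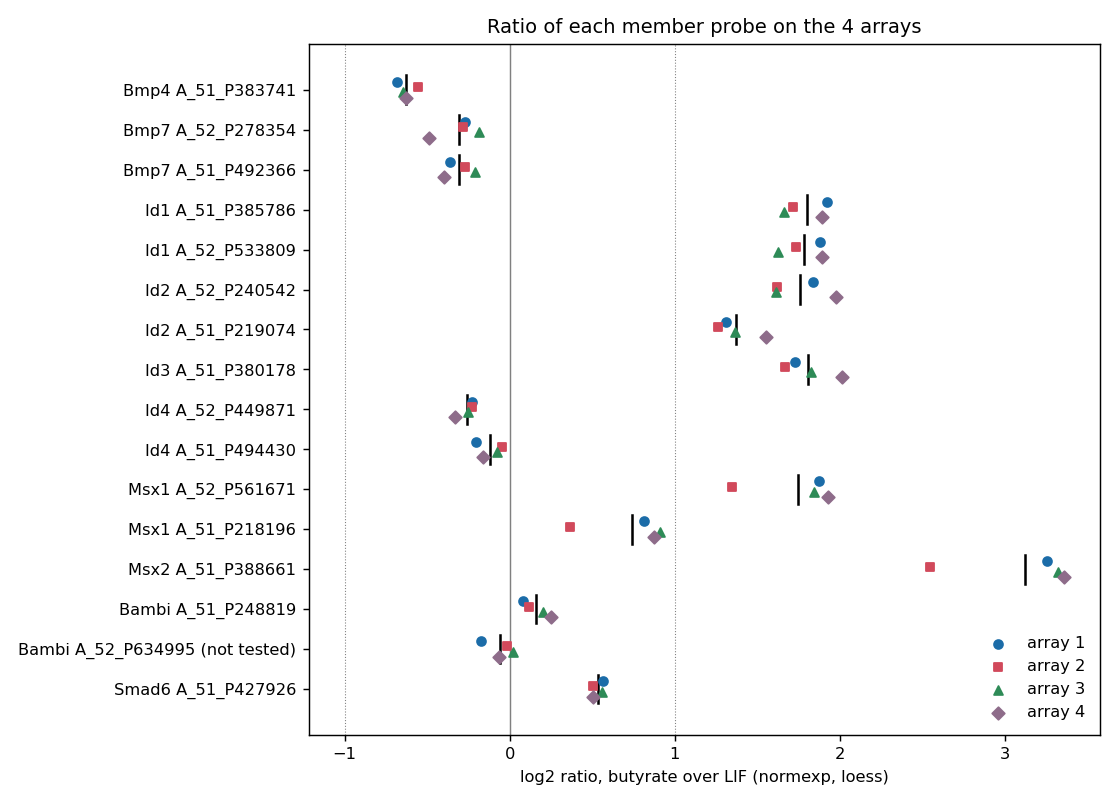
Log2 ratio of butyrate over LIF (horizontal axis) for the 16 probes of the 10 genes, with 1 point per array and a bar at the mean of the 4 arrays. The Id1, Id2, Id3, Msx1 and Msx2 points lie to the right of 0 and those of Bmp4, Bmp7 and Id4 to its left, and the Msx2 point of array 2, at 2.55, lies apart from the others.

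Both ligands were lower in butyrate under loess. Bmp4, a ligand that mouse embryonic stem cells make themselves, had log2 levels of 10.19, 10.05, 10.19 and 10.25 in LIF replicates 1 to 4 and of 9.51, 9.49, 9.54 and 9.62 in the butyrate replicates. Every butyrate sample thus lay below every LIF sample. The log2 ratio was −0.63 ± 0.055 (SD, n = 4 arrays), a 1.55-fold lower level (limma adjusted p = 1.65e-06), but −0.04 and not called (limma adjusted p = 0.817) with arrays centred on the median, where the median of all probes was itself 0.37. The probe was spotted 10 times on each array. The SD of single spots was 0.038 to 0.059 within an array, and the 0.055 is the SD of the array means of these spots.

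Bmp7, a ligand that is known from kidney, eye and bone development, was 1.24-fold lower. Its probe A_51_P492366 had log2 levels of 8.62, 8.51, 8.51 and 8.61 in LIF and of 8.26, 8.24, 8.30 and 8.21 in butyrate, again without overlap. The log2 ratio was −0.31 ± 0.085 (limma adjusted p = 0.000232). The other probe, A_52_P278354, gave −0.31 ± 0.13 (limma adjusted p = 0.000792), so the probes differed by less than their spread between arrays. With arrays centred on the median, both Bmp7 probes had positive ratios, of 0.20 each, that did not pass.

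Id1, Id2 and Id3, the Id genes most often induced by BMP, rose together and by like sizes. The Id1 probe A_51_P385786 had log2 levels of 11.19, 11.41, 11.33 and 11.13 in LIF and of 13.11, 13.13, 12.99 and 13.02 in butyrate, a ratio of 1.80 ± 0.13 or 3.48-fold (limma adjusted p = 4.33e-08). The other Id1 probe gave 1.78 ± 0.13, or 3.44-fold (limma adjusted p = 4.30e-08), and the probes differed by 0.02 ± 0.028 within arrays. The gap between the groups was many times the spread within either, and LIF replicate 2 was the highest LIF sample on both probes.

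Id2, which is also known for its part in lymphoid and mammary development, had log2 levels of 10.48, 10.60, 10.47 and 10.19 in LIF and of 12.32, 12.22, 12.09 and 12.17 in butyrate on probe A_52_P240542. This was a ratio of 1.76 ± 0.18, or 3.39-fold (limma adjusted p = 1.20e-07). The dimmer probe A_51_P219074 gave 1.37 ± 0.13, or 2.59-fold (limma adjusted p = 1.47e-07), which was lower than the first by 0.39 ± 0.12 within arrays. Both probes placed all butyrate samples above all LIF samples, and LIF replicate 4 was the lowest LIF sample on each. With arrays centred on the median the Id2 ratios were 2.35 and 1.97.

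Id3 had a single probe, with log2 levels of 10.70, 10.80, 10.62 and 10.46 in LIF and of 12.43, 12.47, 12.44 and 12.47 in butyrate. The butyrate samples lay close to one another, and the LIF samples spread more widely. The ratio was 1.81 ± 0.15, or 3.50-fold (limma adjusted p = 6.36e-08). The mean ratios of the Id1, Id2 and Id3 probes with the higher signal thus lay between 1.76 and 1.81, within the SD of each.

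Id4, the family member best known from neural progenitors and mammary cells, went the other way under loess. Its probe A_52_P449871 had log2 levels of 8.21, 8.20, 8.26 and 8.31 in LIF and of 7.98, 7.97, 8.01 and 7.98 in butyrate. The butyrate samples were all lower, by little: the ratio was −0.26 ± 0.050, or 1.20-fold lower (limma adjusted p = 0.000303). Probe A_51_P494430 gave −0.12 ± 0.074 (limma adjusted p = 0.0262), a call lost without replicate 1 (−0.09, limma adjusted p = 0.106), without replicate 3 (−0.14, 0.0549) and without replicate 4 (−0.11, 0.0833). With arrays centred on the median both Id4 ratios turned positive, at 0.21 and 0.07, without passing. Under the alternatives run, Id4 was at or below 0.21, and the probes of Id1, Id2 and Id3 were at or above 1.31.

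**Figure D2:**
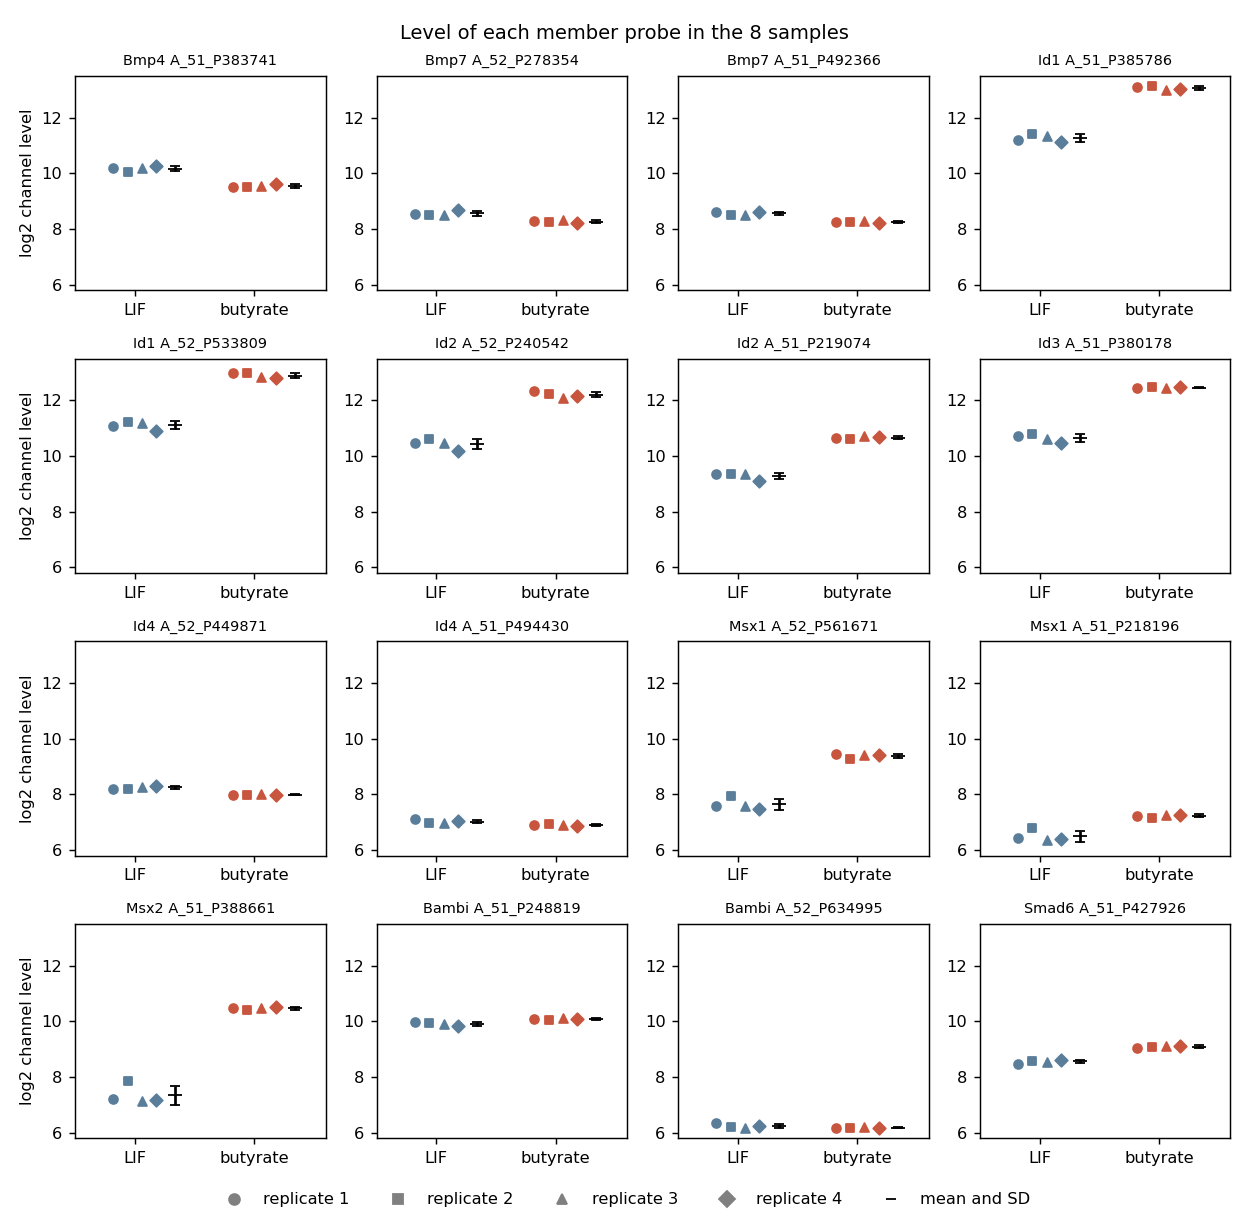
Log2 level of each of the 16 probes (vertical axis, channel level after loess and Aquantile) in the 4 LIF and 4 butyrate samples, with 1 panel per probe, a marker shape for each replicate and a bar for the mean ± SD. The levels of the groups overlap in the panel of Bambi probe A_52_P634995, and LIF replicate 2 stands above the other LIF samples in the Msx1 and Msx2 panels.

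Msx2 had the largest ratio among these genes, and also the largest spread between arrays. Msx2, a homeobox gene of skull and tooth development, had log2 levels of 7.21, 7.86, 7.14 and 7.16 in LIF and of 10.47, 10.40, 10.47 and 10.52 in butyrate. The butyrate samples were close together, and LIF replicate 2 stood above the other LIF samples by 0.69. The ratio was 3.12 ± 0.39, or 8.71-fold (limma adjusted p = 1.73e-07), and 3.31 ± 0.054, or 9.95-fold, over arrays 1, 3 and 4. The scanner software's own ratio, which uses no offset, was 17.8-fold for this dim LIF signal. The 10 single spots of the probe had an SD of 0.084 to 0.11 within an array, and the array means of these spots one of 0.39.

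Msx1, which acts with Msx2 in craniofacial development, was measured by a pair of probes that had the same direction and different sizes. Probe A_52_P561671 had log2 levels of 7.57, 7.93, 7.56 and 7.49 in LIF and of 9.44, 9.28, 9.41 and 9.42 in butyrate, a ratio of 1.75 ± 0.27 or 3.36-fold (limma adjusted p = 6.41e-07). Probe A_51_P218196 had levels of 6.42, 6.77, 6.36 and 6.38 in LIF, where it was not well above background in any sample, and of 7.24, 7.14, 7.27 and 7.26 in butyrate. All butyrate samples were above all LIF samples on both probes, and LIF replicate 2 was again the highest LIF sample. The second probe was at least 1.67-fold higher in butyrate (limma adjusted p = 6.98e-05), open to dye bias like every fold here. By the scanner software's ratio it was 14.3-fold higher. As a probe read above background in butyrate alone, it had to differ to pass the filter at all.

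Both inhibitors were higher in butyrate by less than 2-fold under loess. With arrays centred on the median, Smad6 was above 2-fold, at a log2 ratio of 1.08 (limma adjusted p = 0.000189). The median of all probes was itself 0.37 in that setting, and relative to it Smad6 was at 0.72, below 2-fold. Smad6, an inhibitory Smad that BMP signals induce and that blocks them inside the cell, had log2 levels of 8.47, 8.59, 8.55 and 8.63 in LIF and of 9.04, 9.09, 9.11 and 9.13 in butyrate. All butyrate samples were higher, with a ratio of 0.53 ± 0.033, or 1.45-fold (limma adjusted p = 2.90e-06), the smallest SD of the 15 tested probes. Bambi, a membrane pseudoreceptor without kinase activity that dampens BMP and TGF-beta signals, had levels of 9.99, 9.93, 9.91 and 9.82 in LIF and of 10.07, 10.04, 10.11 and 10.07 in butyrate on probe A_51_P248819. The groups did not overlap but lay close, with a ratio of 0.16 ± 0.078, or 1.12-fold (limma adjusted p = 0.00787). The call was lost with the scanner software's ratio (0.06, limma adjusted p = 0.319) and with the authors' value table (0.04, limma adjusted p = 0.494). With arrays centred on the median the Bambi ratio was 0.76, or 0.39 relative to the median of all probes there. The other Bambi probe, A_52_P634995, was not well above background in any sample and was not tested. Its ratios were −0.17, −0.02, 0.02 and −0.06, and its levels overlapped between the groups.

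**Figure D3:**
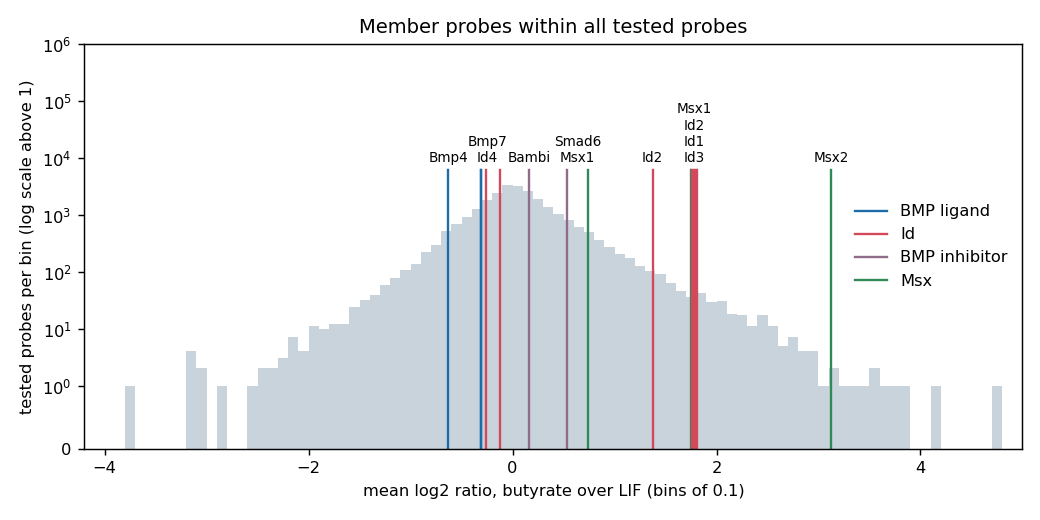
Number of tested probes (vertical axis, log scale above 1) in bins of 0.1 of the mean log2 ratio of butyrate over LIF (horizontal axis), with a coloured line for each of the 15 tested probes of the 10 genes. The lines of Id1, Id3 and the brighter Id2 and Msx1 probes near 1.8 and of Msx2 at 3.12 lie in the sparse right tail. There 4.10% of probes were at least 2-fold higher. The dimmer Id2 probe, at 1.37, is also in this tail, and the dimmer Msx1 probe, at 0.74, and Smad6, at 0.53, lie short of it. Those of Bmp4, Bmp7, Id4 and Bambi lie in the bulk.

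The position of LIF replicate 2 was shared by many transcripts. It had the highest of the 4 LIF levels for 65.4% of the 1051 probes that were at least 2-fold higher in butyrate, and array 2 had the lowest ratio for 66.3% of them. Among the 7 probes of these genes that were at least 2-fold higher, array 2 had the lowest ratio for 4 and array 4 the highest for 6. In the same LIF sample markers of other cell types also stood highest, with a mean log2 level of 9.56 over the 12 tested trophoblast markers against 9.26 to 9.35 in the other LIF samples, and of 7.90 against 7.68 to 7.77 over the 10 tested fibroblast markers. The 9 stem cell markers had a mean log2 level of 12.95 in that sample, against 12.93 to 12.95 in the other LIF samples. Over all tested probes array 2 had the narrowest spread of ratios, with an SD of 0.45 against 0.52 to 0.54 on the other arrays. The part of other cell types, or of this narrower spread, in the Msx levels was not tested. All 7 probes kept their call and stayed at least 2-fold higher with any of the 4 replicates left out.

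Most tested markers of other cell types moved in the same direction as Id1, Id2, Id3, Msx1 and Msx2. Over all genes 41.3% were higher and 32.9% lower in butyrate. Of 12 tested trophoblast markers, 12 were higher in butyrate (median log2 ratio 2.17), and their mean level rose from between 9.26 and 9.56 in LIF to between 11.13 and 11.20 in butyrate. Tpbpa, which defines spongiotrophoblast, was not above background in either group, and Elf5, a trophoblast stem cell factor, not in LIF. Of 10 tested fibroblast markers 8 were higher and 2 lower (median 1.10, mean levels from 7.68 to 7.90 in LIF and from 9.06 to 9.11 in butyrate), with Dcn, Lum and Fap not above background in LIF and Fap not in butyrate. Of 9 primitive streak and mesoderm markers 7 were higher and 2 not called (median 0.68, mean levels from 7.08 to 7.34 and from 7.94 to 8.12). Of 7 tested extraembryonic endoderm markers 6 were higher and 1 not called (median 0.64, mean levels from 7.15 to 7.34 and from 7.71 to 7.73), with Afp and Ttr not above background in LIF and Ttr not in butyrate. Elf5, Dcn and Afp, counted as higher, were not above background in any LIF sample and passed the filter through the butyrate channel. The part of cells with these markers in the BMP target levels was not tested.

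The wider pathway was read from 65 other genes, 54 of which had a tested probe, taking for each gene the probe with the highest signal. In butyrate 37 were higher, 11 lower and 6 not called, against 41.3% higher and 32.9% lower over all 17312 genes. At least 2-fold higher were 9 of the 54, against 859 of the 17312 genes with 1 probe per gene. At least 2-fold lower was 1 of the 54, against 339 of the 17312. The median log2 ratio of the 54 was 0.24, and that of all genes was 0.03. The untested genes were Bmp3, Bmp5, Bmp10, Bmp15, Gdf2, Acvrl1, Smad9, Chrdl1, Grem1, Cer1 and Sostdc1. Of the 54, 7 were not well above background in any LIF sample and passed through the butyrate channel, and these 7 were among the higher genes. With arrays centred on the median 37 were higher and 1 lower. Of all 25661 tested probes, 14222 were higher and 1241 lower in that setting, and their median log2 ratio was 0.37. That setting moved the log2 ratios of Bmp1, Gdf3, Bmpr2 and Smad1 to 2.80, −0.44, 1.65 and 1.61, and those of Smad5, Nbl1, Hand1 and Tcf12 to 1.05, 3.04, 3.13 and 1.48.

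Of 9 tested ligands and related genes, 6 were higher and 2 lower. Bmp1, a procollagen protease that carries the family's name and is no ligand, had the largest ratio (2.21 ± 0.16, limma adjusted p = 3.20e-08), with 0.78 on its other probe. Gdf3, a ligand typical of pluripotent cells, fell (−1.04 ± 0.11, limma adjusted p = 3.46e-07), and Bmp8b, a ligand known from germ cell induction, rose (0.99 ± 0.15, limma adjusted p = 1.24e-06). Of 9 tested receptors and coreceptors, 6 were higher and 2 lower. The type II receptor Bmpr2 rose on all of its 3 tested probes (1.06 ± 0.20, limma adjusted p = 2.84e-06, with 0.56 and 0.46 on the others). The type I receptor Acvr1 rose by 0.77 ± 0.026 (limma adjusted p = 3.70e-07). Bmpr1a, the other type I receptor named here, rose by 0.50 ± 0.16 (limma adjusted p = 0.000110) on one probe and had 0.08 on the other, which did not pass.

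Of the 4 tested Smads 3 were higher. Smad1, which carries the signal from the receptors, rose by 1.02 ± 0.14 (limma adjusted p = 8.44e-07), with 0.50 on its other probe. Smad4, the common partner, rose by 0.66 ± 0.014 (limma adjusted p = 7.54e-07), with 0.28 on its other probe, and Smad5 by 0.46 ± 0.072 (limma adjusted p = 1.58e-05), with 0.15 and 0.05 on its other probes. Smad7, an inhibitory Smad of the same class as Smad6, was not called (−0.23 ± 0.43, limma adjusted p = 0.155).

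Of 12 tested antagonists that act outside the cell, 9 were higher and 2 lower. Nbl1, a secreted BMP antagonist of the DAN family, rose by 2.44 ± 0.15 (limma adjusted p = 1.77e-08) and Fst, follistatin, which binds activins and some BMPs, by 1.10 ± 0.15 (limma adjusted p = 6.53e-07). Chrdl2, a chordin-like antagonist, was not well above background in any LIF sample and was at least 1.92-fold higher in butyrate (limma adjusted p = 2.61e-05). By the scanner software's ratio, Chrdl2 was at 4.13 and Fst at 1.69 on the log2 scale. Of 7 regulators inside the cell 3 were higher and 3 lower. Smurf1, counted as lower (−0.39), had 0.22 on its other probe, which also passed (limma adjusted p = 0.00337). Ski, counted as higher (0.12), had −0.18 on another probe, which also passed (limma adjusted p = 0.00438). The remaining Ski probe, at −0.14, was not called. Zeb2, a repressor that binds Smads, rose by 1.21 ± 0.21 (limma adjusted p = 1.66e-06), with 0.38 and 0.05 on its other tested probes, and Smurf2, a ubiquitin ligase for Smads and receptors, by 0.68 ± 0.037 (limma adjusted p = 8.09e-07). By the scanner software's ratio Zeb2 was at 2.19. Tgif1, a corepressor, fell under loess (−0.41 ± 0.10, limma adjusted p = 6.28e-05) and was at 0.18, not called, with arrays centred on the median.

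Of 10 other target genes 9 were higher and 1, Hey1 (−0.78, limma adjusted p = 7.87e-07), a Notch and BMP target named after its value was seen, was lower. The largest increases were those of Gata2 (2.66 ± 0.31, limma adjusted p = 1.41e-07), Hand1 (2.53 ± 0.20, limma adjusted p = 3.38e-08) and Gata3 (2.40 ± 0.38, limma adjusted p = 6.00e-07), transcription factors of trophoblast and mesoderm. By the scanner software's ratio Gata3 was at 3.89, above Gata2 at 3.17 and Hand1 at 2.60, so the order of these genes depends on the processing. Hand1 and Gata3 are also among the trophoblast markers, so the lists are not independent. The E proteins that Id proteins bind went in different directions. Tcf12 rose by 0.89 ± 0.11 (limma adjusted p = 8.30e-07), with 0.62 and 0.19 on its other probes. Tcf3 was lower under loess on both its probes (−0.29 ± 0.13, limma adjusted p = 0.00127, and −0.48), at 0.29 and not called with arrays centred on the median, and Tcf4 was not called on its probe with the highest signal (−0.02, limma adjusted p = 0.868). On its other probes Tcf4 had −0.26, which passed (limma adjusted p = 0.0263), and −0.06, which did not (limma adjusted p = 0.217).

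**Figure D4:**
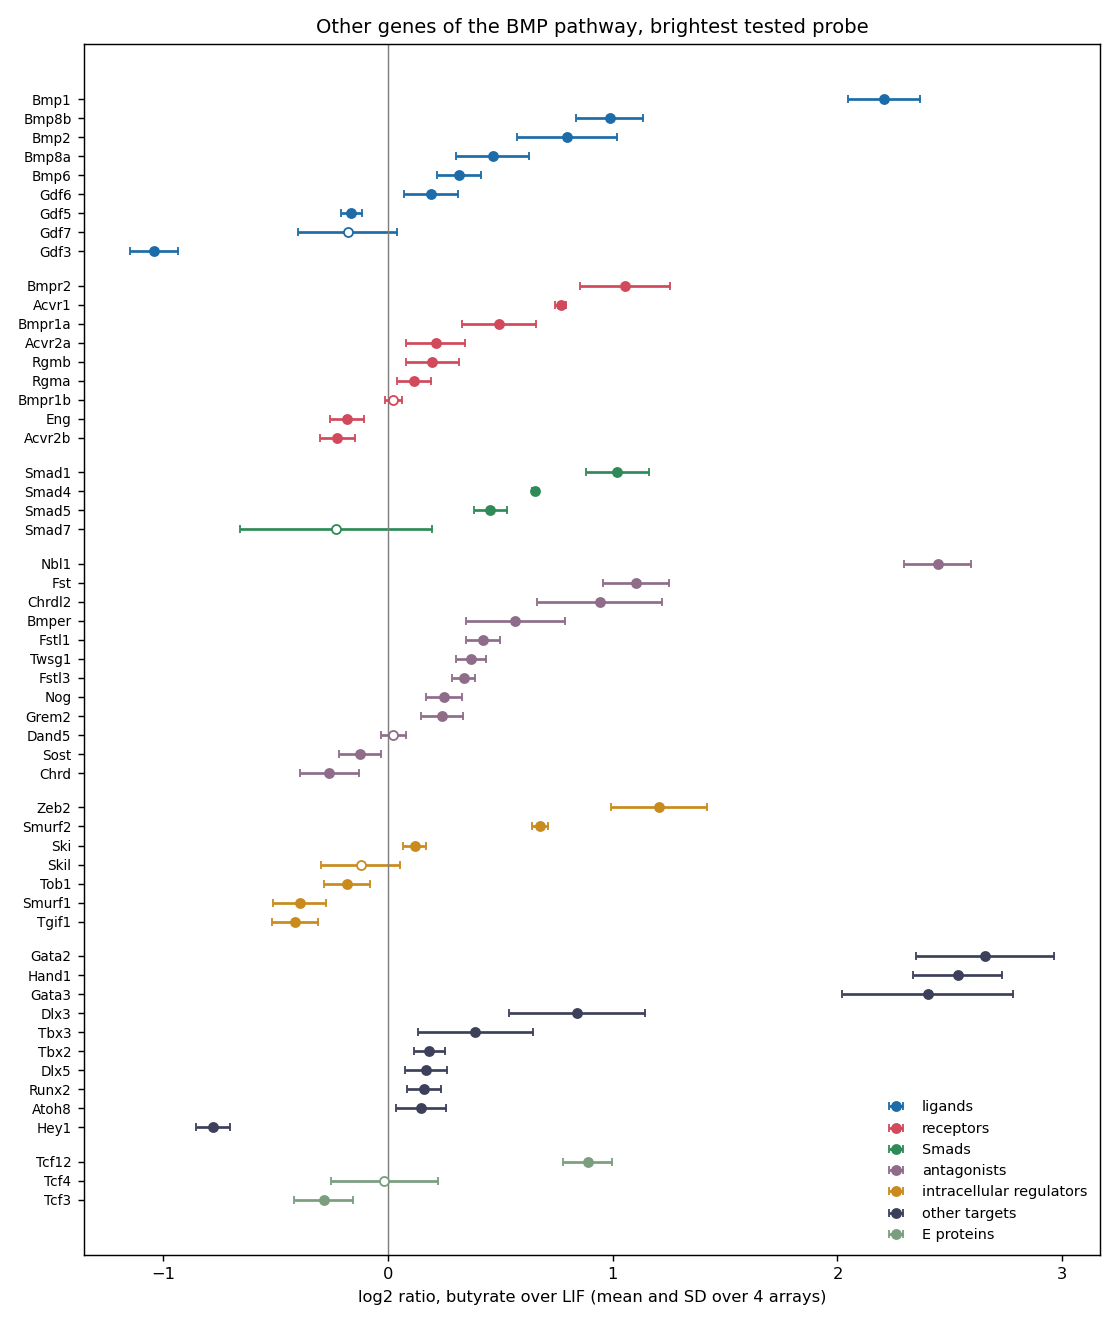
Log2 ratio of butyrate over LIF (axis in log2 units) of the 54 tested genes of the wider BMP pathway, arranged by role, with bars for the SD of 4 arrays and open symbols for genes that were not called. Gata2, Nbl1, Hand1, Gata3 and Bmp1 lie above 2, and Gdf3 at −1.04 is the lowest.

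**Figure D5:**
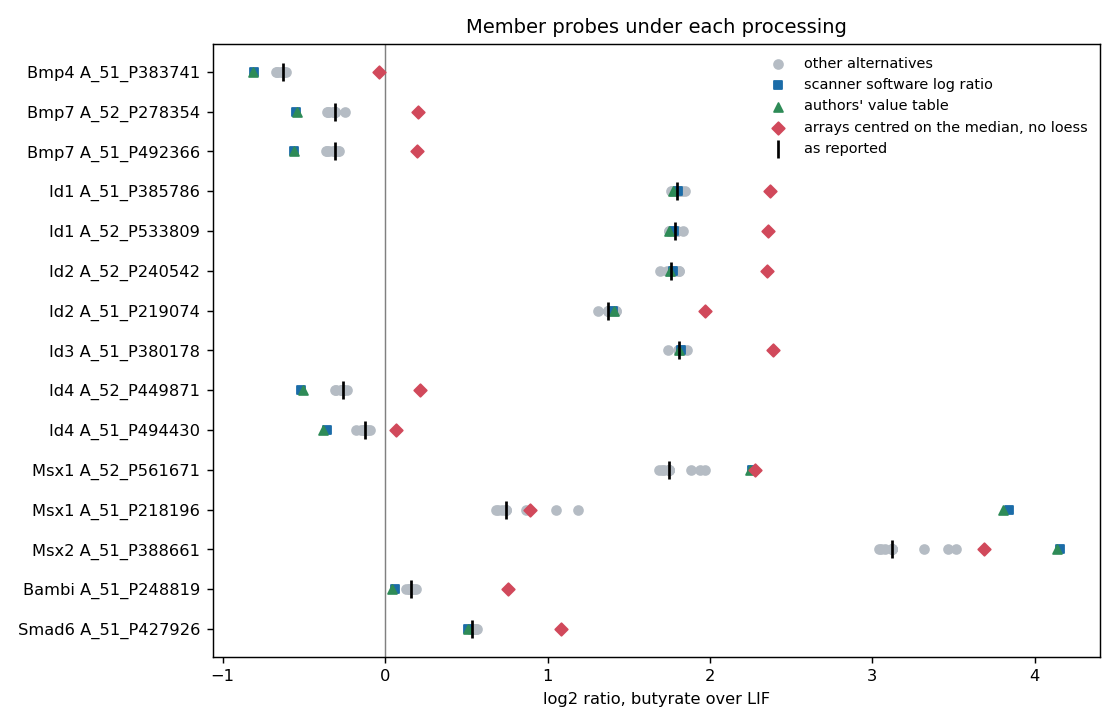
Log2 ratio of butyrate over LIF (horizontal axis) of the 15 tested probes as reported (black bar) and under the other ways of processing (points). Centring arrays on the median moves every probe to the right and carries Bmp7 and Id4 across 0, and the scanner software's and the authors' values give the dim Msx1 probe about 3.8.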

How the data were processed

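RNA of 8 samples was hybridised in pairs to 4 arrays, with 1 scan per array. Scans were read with Agilent Feature Extraction 9.1, per the submitters' processing notes. In the deposited files each spot has an intensity in either channel (mean signal and median background) and, per the file headers, a log10 ratio of Cy5 over Cy3 that the software background-subtracted and dye-normalized. The authors' value table holds log2 values, and its columns correlated with the scanner software's processed signals, as log2, at 0.9996 or above. The sources used here do not give the tool that normalized it.

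With limma 3.58.1 in R 4.3.3, signals were background-corrected (normexp, offset 50, which understates the folds of dim probes) and loess-normalized within arrays, with control spots at weight 0. Over the arrays 14 outlier spots of 43379 non-control positions were set to missing, none of them for these genes, and the spots of a probe were averaged. Levels are channel log2 values after loess and Aquantile. The 4 log2 ratios of butyrate over LIF were tested against 0 with lmFit and eBayes, adjusted by Benjamini-Hochberg over 25661 probes, with a threshold of 0.05. Values are means ± SD over 4 arrays. A fold given as "at least" sets the butyrate mean against, per array, the higher of the lowest signal well above background and the probe's own. The steps were tested on simulated data.

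The array is the replicate block. Samples of 1 number deviated together from their groups, with correlations of 0.25, 0.15, 0.30 and 0.21, against −0.22 to 0.09 for other numbers. These samples share an array, so this does not show that cultures were paired. With 1 slide, no batch could be tested.

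The 10 genes, the 65 pathway genes and the marker lists were chosen with earlier results of these data known. Genes named were all probes of the 10 genes, up to 3 genes per role of the pathway list with the largest ratio that passed with 1 sign on all arrays, and Bmpr1a, Bmpr2, Acvr1, Smad1, Smad4 and Smad5. Smad7, Tcf4, Hey1, Smurf1 and Ski were named after their values were seen. Pathway and marker probes were named by accession, then by name or synonym, in RefSeq's gene table (GRCm38.p6). This took 2 probes called Tcf3 in the files, now Tcf7l1, out of the pathway list, which had been planned by name. Alternatives were no background correction, an offset of 16, the scanner software's ratio, centring on the median without loess, no or a stricter filter on dim probes, saturated spots missing, 1 probe per gene, no replicate block, the authors' table, and each replicate left out. Plots were made in Python 3.11.15 with matplotlib 3.10.9.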

Additional observations from a re-analysis of the deposited data

Results flagged for a closer look

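Of 45 groups of 4 values examined for the probes of these genes, 5 held a sample far from the other 3, where chance gives about 1 in 20 groups. Array 2 accounted for 4 of the 5. On it the Msx2 ratio was 2.55, against 3.26 to 3.36 on the other arrays, and the Msx1 ratio of probe A_52_P561671 was 1.35, against 1.84 to 1.93. The LIF sample of that array had an Msx2 level of 7.86, against 7.14 to 7.21 in the other LIF samples, and a level of 6.77 on Msx1 probe A_51_P218196, against 6.36 to 6.42. These groups share their samples and are not independent. The other was LIF replicate 4, with a level of 9.11 on Id2 probe A_51_P219074, against 9.335 to 9.35. All values are on the log2 scale.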

How the results depend on the processing

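Of 204 values of single BMP gene probes under the alternatives, 194 kept their direction and call, 6 lost the call and 4 turned; of 279 values of named pathway genes, 277 kept both and 2 turned. All turned with arrays centred on the median without loess: Bmp7 to 0.2046 and 0.1991, Id4 to 0.2147 and 0.0672, Tgif1 to 0.18 and Tcf3 to 0.29. This setting also moved the median of all probes to 0.37, and relative to it Bmp4 was at −0.41, Bmp7 at −0.16 and −0.17, and Id4 at −0.15 and −0.30. It left 1241 of all probes lower, 3602 at least 2-fold higher and 95 at least 2-fold lower, with 0 lower BMP gene probes and 1 lower pathway gene. At least 2-fold higher were 2754 probes by the scanner software's ratio and 2631 by the authors' table, and at least 2-fold lower 1623 and 1722. With 1 probe per gene, 3 of the 10 BMP genes were lower. The cause of these changes was not tested.

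Without the replicate block 18038 probes were called, against 18537 with it, and all 15 BMP gene probes were called in either. With 1 replicate left out, 16374 to 18407 probes were called (9110 to 10020 higher, 7264 to 8387 lower, 1007 to 1140 at least 2-fold higher, 391 to 463 at least 2-fold lower), as were 14 to 15 BMP gene probes (10 higher, 4 to 5 lower, 7 at least 2-fold higher) and 43 to 49 pathway genes (33 to 36 higher, 10 to 14 lower). Dim LIF signals limit the folds of Msx1, Msx2, Chrdl2, Gata3 and Zeb2.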
